A study of Mus musculus with 6 samples.

Results

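Genes whose symbol is Gm followed by a number are predicted mouse genes that have not yet been given a name of their own. The table of this series holds 10974 of them among 31763 genes, and 383 had a summed count of at least 1000 over the 6 libraries. These 383 highly counted Gm genes are described here. They were chosen by name and by the sum over all libraries, so that their high counts are a description, while the contrast of morphine with saline was not used to choose them. RNA came from the medial prefrontal cortex (mPFC) of male C57BL/6J mice aged 8 to 10 weeks. The morphine group (3 samples) had received 10 mg/kg intraperitoneally during 5 days of conditioned place preference training, a test in which a chamber is paired with the drug. The saline group (3 samples) had received 10 ml/kg in the same schedule, and tissue of both groups was taken on day 13, right after the last preference test. The comparison addresses which RNAs differ in the mPFC after withdrawal and retrieval of the drug-paired memory. No source used here says whether a sample is 1 mouse or a pool, so the tests cover the spread between the samples only.

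Many Gm genes rest on a few cDNA clones or on blocks of aligned reads. GENCODE lists a large share of them under TEC, a class for single-exon loci with features of a transcript that await laboratory proof. Libraries made by rRNA depletion, as here, also contain RNA that has not yet been spliced, so that a locus inside an intron collects reads from the precursor RNA of its host gene as well as from any transcript of its own. Many loci on the strand opposite to a gene are annotated as antisense transcripts, some of which are known to regulate the gene they overlap. The libraries kept the strand of the RNA, but no source states how the counting used it. Reads of an antisense member and of its host can therefore not be told apart with certainty.

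Total counts ranged from 17984153 to 23529592 per library. Cortical markers were high in every library, and the summed level of 9 excitatory neuron markers was 4749 to 5187 CPM (the count over the library's total, scaled by TMM) in all but saline 1, where it was 4160 CPM. Saline 1 also stood apart in 19 olfactory bulb markers, which summed to 339 to 367 CPM in the morphine libraries and to 983, 328 and 334 CPM in saline 1 to 3. In saline 1, 16 of these 19 exceeded 2 times the highest other library. Eomes, a marker of bulb projection neurons, had 6, 1 and 7 counts in morphine 1 to 3 and 462, 2 and 0 counts in saline 1 to 3. The main counts of members called are therefore also given without saline 1 or another library where that moved them by more than 1.5 times. Mitochondrially encoded genes took 0.718% to 0.857% of the counts in the morphine libraries and 0.670% to 0.787% in the saline libraries.

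The 383 members took 2.61%, 2.98% and 3.12% of all counts in morphine 1 to 3 and 2.76%, 3.34% and 3.15% in saline 1 to 3. Most of that came from a pair of lincRNA loci beside the nuclear rRNA sequence on chromosome 17. Gm26917 (GRCm38 chr17:39843013-39846341, plus strand) had 2463168 counts over the 6 libraries and the highest mean FPKM (a length-scaled level) of any gene in the table, at 5968. Gm42418 (chr17:39846958-39848788, plus strand) lies opposite to an annotated rRNA gene, and RefSeq lists it under Rn18s-rs5, an rRNA-related locus. It ranked 4 by FPKM, at 1496. Neither differed by more than the spread between libraries. Gm26917 had 17117, 19456 and 22221 CPM in morphine 1 to 3, against 17782, 22514 and 20319 CPM in saline 1 to 3 (log2 fold change -0.04, 95% interval -0.30 to 0.21, adjusted p = 0.926). Together the pair took 1.93% to 2.48% of counts in morphine and 2.08% to 2.55% in saline.

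Outside that locus the counts were modest. Of the 383 members, 144 had at least 2000 summed counts, 27 at least 5000 and 11 at least 10000. The next by FPKM were Gm20721 at 77.7, Gm20417 at 76.3 and Gm45884 at 67.5, with FPKM ranks of 285 to 358 among all genes. At the threshold, Gm48624, Gm37166 and Gm19863 were just inside with 1010, 1007 and 1002 counts. Gm43274, Gm26672 and Gm38451 were just outside with 999, 998 and 998. All 3 inside and 1 of the 3 outside lie in an intron, on the strand of its gene.

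Of the 383 members, 380 could be placed in GENCODE (GRCm38, which is mm10). The classes were 247 TEC, 37 lincRNA, 30 protein-coding, 25 antisense, 21 sense intronic and 13 processed transcript genes, with 7 in other classes. A single block of exon made up 286 of them. By position, 227 lay wholly within an intron of a protein-coding gene on the same strand, in 119 host genes, and 16 overlapped an exon of such a gene on the same strand. A further 46 overlapped a protein-coding gene on the opposite strand only, 42 of them over its exons. The other 91 had no exonic base in another protein-coding gene and are called non-overlapping. The intronic members were 202 TEC and 21 sense intronic genes and 4 of other classes.

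The groups differed in base composition and in what their annotated ends hold, measures that neither the name nor the sum uses. Median GC content was 38.9% in intronic members and 51.3% in opposite-strand members, against 48.3% over all genes with a transcript. Among genes that are not members, it was 44.1% for intronic and 49.4% for opposite-strand genes. The hexamer AATAAA, the most common signal for cleavage and polyadenylation, stood in the last 50 bases of the longest transcript in 16.3% of the 227 intronic, 38.5% of the 91 non-overlapping and 45.7% of the 46 opposite-strand members. Over all genes the share was 42.8%. Among genes that are not members, it was 14.7% for intronic, 47.4% for non-overlapping and 39.1% for opposite-strand genes. The low intronic share was therefore not particular to the members. Genes of other names that reach the same summed count had a share of 60.5%, above that of each of these member groups. On the other strand (TTTATT) the shares of intronic, non-overlapping and opposite-strand members were 3.96%, 6.59% and 6.52%, against 5.46% over all genes. The differences between these shares were not tested, and a match is not evidence of use.

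The last 50 bases of members that led the comparison of morphine with saline are printed 5′ to 3′ on the strand of the gene, from GENCODE transcripts of GRCm38, to show what the annotated ends look like; AATAAA is in capitals, overlapping matches included. The first 4 are intronic members of lowest p that were lower in morphine. They were taken among those with no overlap of groups, a last exon of at least 50 bases and a sequence reported here. They end at chr13:60629346-60629395 (plus) for Gm48582, chr6:21265571-21265620 (plus) for Gm42583, chr3:55519537-55519586 (plus) for Gm42608 and chr6:80219427-80219476 (plus) for Gm44228.
Gm48582: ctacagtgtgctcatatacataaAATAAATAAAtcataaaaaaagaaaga
Gm42583: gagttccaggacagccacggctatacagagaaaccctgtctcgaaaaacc
Gm42608: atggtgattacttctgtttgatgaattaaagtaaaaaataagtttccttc
Gm44228: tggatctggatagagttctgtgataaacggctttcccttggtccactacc
Of these 4, 1 holds the hexamer. The next 5 are opposite-strand members of lowest p that were higher in morphine, taken under the same limits. They end at chr1:34809360-34809409 (minus) for Gm38336, chr2:174330319-174330368 (minus) for Gm20721, chr16:85083343-85083392 (plus) for Gm49227, chr6:90690780-90690829 (plus) for Gm44123 and chr1:75257378-75257427 (plus) for Gm28294.
Gm38336: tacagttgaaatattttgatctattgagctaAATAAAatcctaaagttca
Gm20721: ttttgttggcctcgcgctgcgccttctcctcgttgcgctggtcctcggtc
Gm49227: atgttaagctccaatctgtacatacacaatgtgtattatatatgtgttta
Gm44123: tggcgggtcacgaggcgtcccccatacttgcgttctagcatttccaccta
Gm28294: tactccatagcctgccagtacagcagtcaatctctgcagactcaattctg
Of these 5, 1 holds it.

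Across the 383 members, more were lower than higher in morphine, and the direction went with position. In the edgeR quasi-likelihood test over 18970 genes, all 383 were tested. At an unadjusted p under 0.05, 19 of them were higher and 92 lower; single members are called higher or lower by this rule, and the p printed for each is adjusted over all genes. Over all genes tested, 2.77% were higher and 4.96% lower by the same rule. The median log2 fold change (morphine over saline) was -0.20 over the members and -0.01 over all genes. At a fold change over 1.5 as well, the threshold that the study used for lncRNAs, 0 members were higher and 12 lower, against 0.554% higher and 1.83% lower of all genes. The groups did not overlap for 20 higher and 61 lower members, where 5.98% and 7.32% of all genes had no overlap. At an adjusted p under 0.05, edgeR called 0 members and 0% of all genes, although 111 members had an unadjusted p under 0.05. DESeq2 called 5 members, Gm42583, Gm42608, Gm48582, Gm42991 and Gm38043, all lower and all intronic, against 0.103% of all genes with an adjusted p. Of genes with other names and the same summed count (10349), 3.19% were higher and 3.63% lower, with a median of 0.01.

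The count of lower members depended on single libraries. It was 217 without saline 1, 50 without morphine 1, 36 without morphine 3 and 45 without saline 3. Over all genes, 2.68% were lower without morphine 1, 2.37% without morphine 3 and 4.43% without saline 3, against 4.96% with all 6 libraries. Without saline 1, 78 members passed an adjusted p of 0.05 and the median was -0.30, while over all genes 0.996% passed it and 7.53% were lower at an unadjusted p under 0.05. The count past a fold of 1.5 was 35 without morphine 2, 33 without saline 1 and 4 without morphine 3. The median stayed below 0 with each library left out, between -0.31 and -0.10.

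Members in introns made up most of the lower ones. Of the 227, 72 (31.7%) were lower, 2 were higher, and 213 had a negative log2 fold change, with a median of -0.29. Set against its mean over the 6 libraries, the median level was -0.17, 0.07 and -0.29 (log2 CPM) in morphine 1 to 3 and -0.14, 0.22 and 0.32 in saline 1 to 3. Morphine 3 was the lowest library and saline 3 the highest, while morphine 2 stood above saline 1, so that the group medians overlapped. Without saline 1, 176 (77.5%) were lower with a median of -0.41. The count was 39 (17.2%) without morphine 1, 29 (12.8%) without morphine 3 and 34 (15%) without saline 3. As a share of all counts, intronic members took 0.307%, 0.367% and 0.277% in morphine 1 to 3 and 0.326%, 0.401% and 0.443% in saline 1 to 3.

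**Figure D1:**
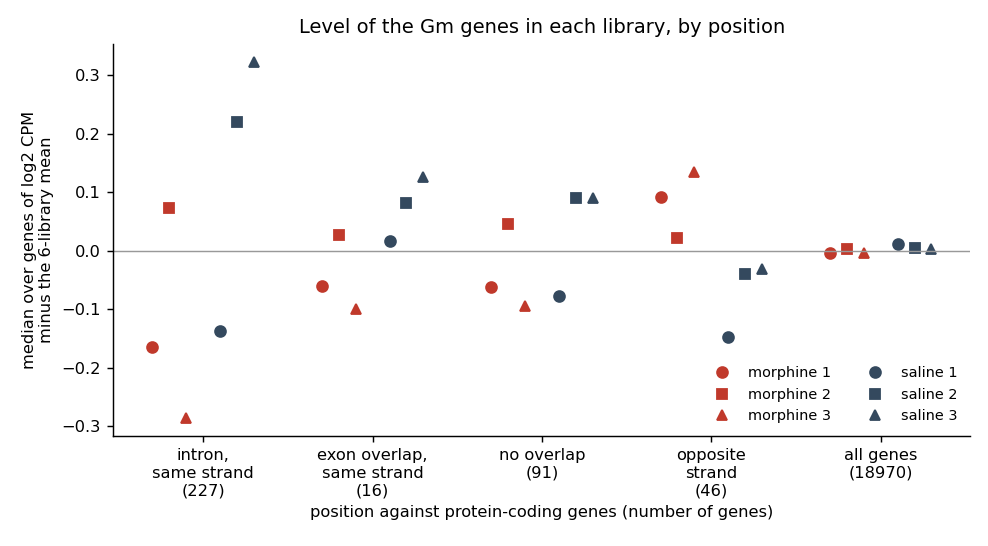
Median over genes of log2 CPM minus the mean of the 6 libraries, for members grouped by position against protein-coding genes and for all genes tested; red symbols are morphine libraries and dark symbols saline libraries. Intronic members ranged from -0.29 in morphine 3 to 0.32 in saline 3, opposite-strand members were above 0 in the 3 morphine and below 0 in the 3 saline libraries, and all genes lay near 0.

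The hosts were near level. Of the 117 hosts that were tested, 2 were higher and 5 lower, and the median log2 fold change over hosts was 0.01. Without saline 1, 0 hosts were higher and 13 lower, while 0 were lower without morphine 3, 1 without morphine 1 and 2 without saline 3. The median over hosts stayed between -0.01 and 0.02. Of 225 intronic members with a tested host, 210 had a lower log2 fold change than their host, and 15 a higher one. Across these 225 pairs, which share libraries and in part hosts, Pearson's r between member and host was 0.21. Member counts were a median of 6.55% of the host's. Reads of unspliced host RNA and of a separate intronic transcript cannot be told apart in these counts, nor can less RNA per cell and fewer cells in bulk tissue.

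**Figure D2:**
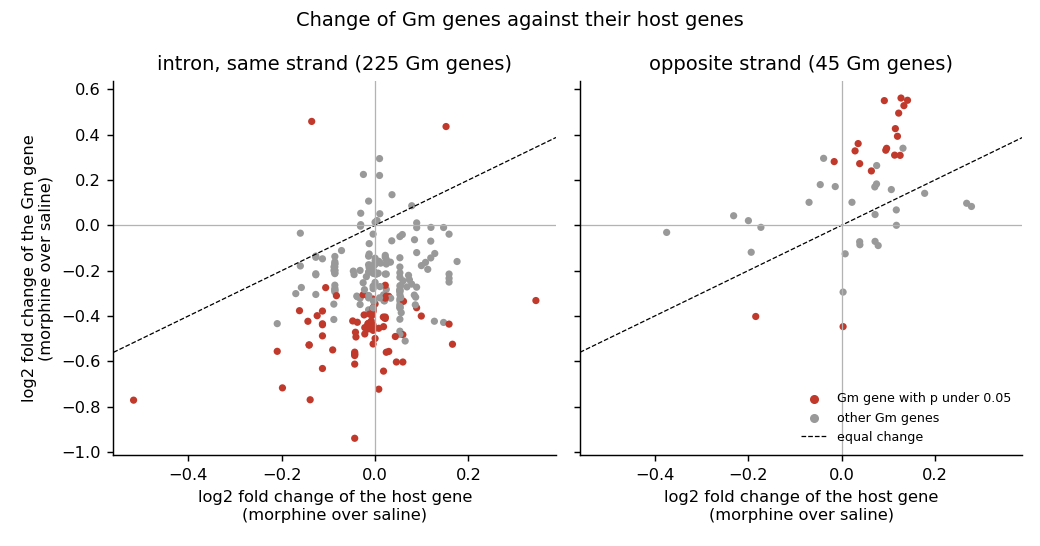
Log2 fold change of each Gm gene (y axis) against that of its host gene (x axis), morphine over saline, for intronic members (left) and opposite-strand members (right); red points have p under 0.05 and the dashed line marks equal change. Of the intronic points 210 of 225 lie below the line, and of the opposite-strand points 31 of 45 lie above it.

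The 9 intronic members among the 10 lower ones that had the lowest p and no overlap of groups are described next. Chosen for low p, each kept an unadjusted p under 0.05 with any 1 library left out. Gm48582 lies in an intron of Dapk1, a death-associated protein kinase, and had 13.7, 13.8 and 13.2 CPM in morphine 1 to 3, against 20.3, 19.5 and 22.0 CPM in saline 1 to 3. The morphine values were close together and well below those of saline (log2 fold change -0.60 ± 0.09, SE, adjusted p = 0.249), while Dapk1 itself was at 0.05 ± 0.05. Gm42583 lies in Kcnd2, which encodes a subunit of the A-type potassium channel of dendrites, and had 33.7, 38.8 and 32.7 CPM in morphine and 57.2, 47.0 and 49.7 CPM in saline. Its log2 fold change was -0.55 ± 0.09 (adjusted p = 0.397), against -0.09 ± 0.08 for Kcnd2. Saline 1 was the highest library for both genes, and without it they were at -0.46 and 0.02. Gm42608 lies in Dclk1, a doublecortin-like kinase of microtubules, and had 10.6, 15.1 and 13.6 CPM in morphine and 18.7, 22.7 and 23.5 CPM in saline. It fell by 0.72 on the log2 scale (SE 0.14, adjusted p = 0.467), whereas Dclk1 was level at 0.01 ± 0.05.

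Lrrtm4, a postsynaptic adhesion protein that organizes excitatory synapses, held a pair of these members. Gm44228 had 8.46, 10.8 and 8.40 CPM in morphine, against 13.2, 14.0 and 15.7 CPM in saline (log2 fold change -0.63 ± 0.13, adjusted p = 0.467). Gm44240 had 14.0, 13.1 and 13.4 CPM in morphine, against 17.2, 18.01 and 21.8 CPM in saline (-0.49 ± 0.11, adjusted p = 0.488). In both the highest morphine library was below the lowest saline library, as the choice of members required. Lrrtm4 was at -0.11 ± 0.06, and at -0.06 without saline 1. Gm38043, in the tyrosine kinase gene Abl2, had 6.91, 9.05 and 6.02 CPM in morphine and 13.9, 12.3 and 11.1 CPM in saline (-0.77 ± 0.16, adjusted p = 0.467; Abl2 -0.14 ± 0.09). Gm42943, in the neuronal adhesion gene Negr1, had 11.3, 11.5 and 10.0 CPM in morphine and 17.2, 13.9 and 20.1 CPM in saline (-0.64 ± 0.14, adjusted p = 0.467; Negr1 0.02 ± 0.06). As the choice of members required, the groups overlapped in neither Gm38043 nor Gm42943. Saline 1 was the highest library for Gm38043 and for Abl2, and without it they were at -0.68 and 0.01.

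Gm48700, in the presynaptic adhesion gene Nrxn3, had 9.51, 10.0 and 8.35 CPM in morphine and 13.03, 12.6 and 14.6 CPM in saline (-0.53 ± 0.12, adjusted p = 0.467). Nrxn3 was itself lower, though by less, at -0.14 ± 0.06, and passed an unadjusted p of 0.05. Its highest library was saline 1 (606 CPM, against 531 and 558 CPM in saline 2 and 3), and without saline 1 Nrxn3 was at -0.09. Gm42991, in Auts2, a gene of transcriptional regulation in developing neurons, had the lowest log2 fold change of the 383 members. It had 8.24, 8.28 and 5.63 CPM in morphine, against 18.5, 11.1 and 12.6 CPM in saline (-0.94 ± 0.21, adjusted p = 0.467; Auts2 -0.04 ± 0.08). Saline 1 was its highest library, and without it the value was -0.69. Gm3294, a lincRNA that overlaps no protein-coding gene, had 7.13, 7.61 and 6.19 CPM in morphine and 9.96, 10.5 and 11.8 CPM in saline (-0.62 ± 0.13, adjusted p = 0.467). It lies 31298 bp upstream of Lep, the leptin gene.

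**Figure D3:**
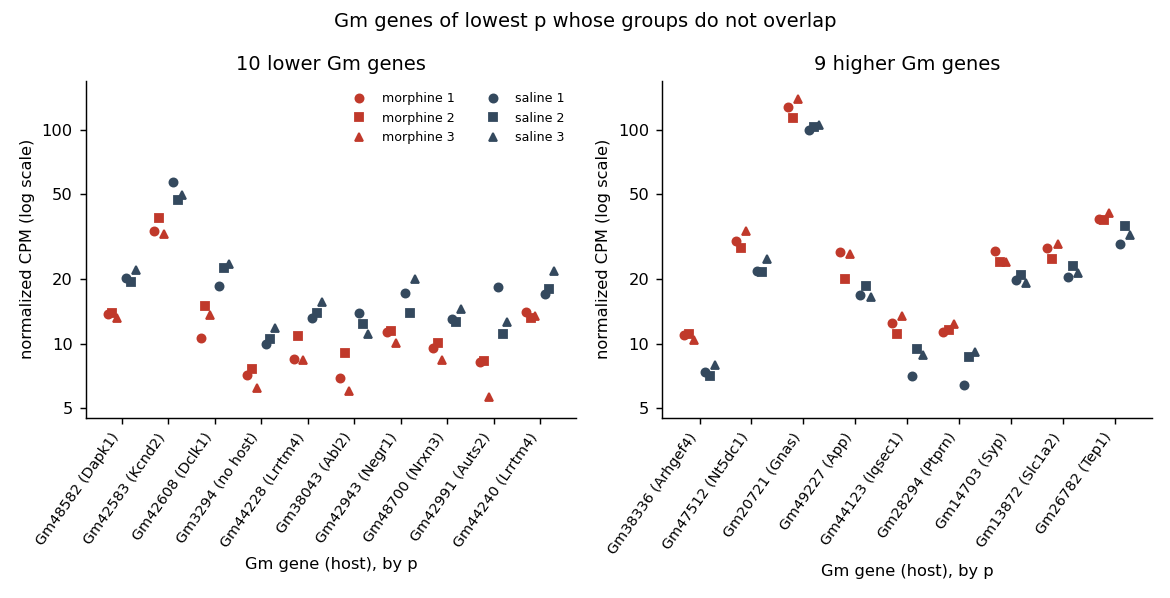
Normalized CPM (log scale) in each library for the 10 lower (left) and 9 of the 10 higher (right) Gm genes with the lowest p and no overlap of groups, with the host gene in brackets; red symbols are morphine libraries and dark symbols saline libraries. Every red symbol is below every dark one on the left and above every dark one on the right, with values from 5.63 CPM (Gm42991, morphine 3) upward.

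Several hosts held many members, which lie in introns of the same gene and cannot be taken as independent of each other. Kcnip4, a cytoplasmic partner of A-type potassium channels, held 19, Adgrb3, an adhesion receptor of synapses, 14 and Dlg2, a scaffold of the postsynaptic density, 13. The 19 members in Kcnip4 summed to 452, 494 and 373 CPM in morphine 1 to 3, against 314, 591 and 716 CPM in saline 1 to 3. Saline 1 was the lowest of all 6 libraries there and saline 3 the highest. With it none of the 19 passed an unadjusted p of 0.05, at a median log2 fold change of -0.29; without saline 1 all 19 did, at -0.57. Kcnip4 itself had 72.7, 69.0 and 69.7 CPM in morphine and 58.1, 70.9 and 74.9 CPM in saline, so that it too was lowest in saline 1.

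The 14 members in Adgrb3 likewise gave 0 calls with all libraries (median -0.20) and 14 without saline 1 (-0.38). Their sum was 307, 348 and 274 CPM in morphine and 276, 371 and 427 CPM in saline. Without morphine 2, 2 of the 14 were lower. In Dlg2, 8 of 13 were lower (median -0.36), with sums of 225, 270 and 194 CPM in morphine and 250, 299 and 330 CPM in saline. The count was 12 without saline 1 (-0.47), 5 without morphine 1 or saline 2, 3 without morphine 3 and 2 without saline 3. Dlg2 stayed between 653 and 698 CPM in every library. A 14th member, the lincRNA Gm45159, shares 75 bases with a Dlg2 exon and had 74.8, 86.5 and 67.3 CPM in morphine, against 86.3, 92.3 and 107 CPM in saline (-0.32 ± 0.10, adjusted p = 0.59). Its morphine 2 value was just above saline 1.

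In the hosts with fewer members the picture varied. All 6 members in Auts2 were lower (median -0.57), with sums of 67.4, 70.6 and 53.4 CPM in morphine and 131, 83.4 and 78.4 CPM in saline. Here saline 1 was the highest library, and without it 4 of the 6 were lower at a median of -0.38, against 3 of 6 without morphine 3. In Lrrtm4, 5 of 6 were lower (median -0.44), with 2 left without morphine 1, morphine 3 or saline 3 and 3 without saline 2. In Cntnap2, an adhesion protein of axons, 4 of 6 were lower (-0.29), with 2 without morphine 1 and 0 without morphine 3 or saline 3. Ank2, an ankyrin that anchors membrane proteins, had 2 of 7 lower (-0.32), with 5 without saline 1 (-0.49), 4 without morphine 2 and 1 without morphine 3, saline 2 or saline 3. Fam155a, a partner of the sodium leak channel, had 2 of 7 (-0.17), with 5 without morphine 2 and 1 without morphine 1, morphine 3 or saline 3. The catenin gene Ctnna2 had 2 of 5 (-0.28), with 5 without saline 1 (-0.41), 1 without morphine 1 and 0 without morphine 3, saline 2 or saline 3. Among the 5 in the protocadherin gene Pcdh7 1 was lower (-0.23), with 4 without saline 1 (-0.37) and 2 without morphine 2. Among the 5 in Frmd4a 0 were lower (-0.21), with 3 without saline 1 (-0.38) and 2 without morphine 2. In all 11 hosts the median over the members was below 0 with each library left out. The hosts lay between -0.13 (Frmd4a) and 0.16 (Pcdh7), and Frmd4a was the one of these 11 that passed a p of 0.05.

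**Figure D4:**
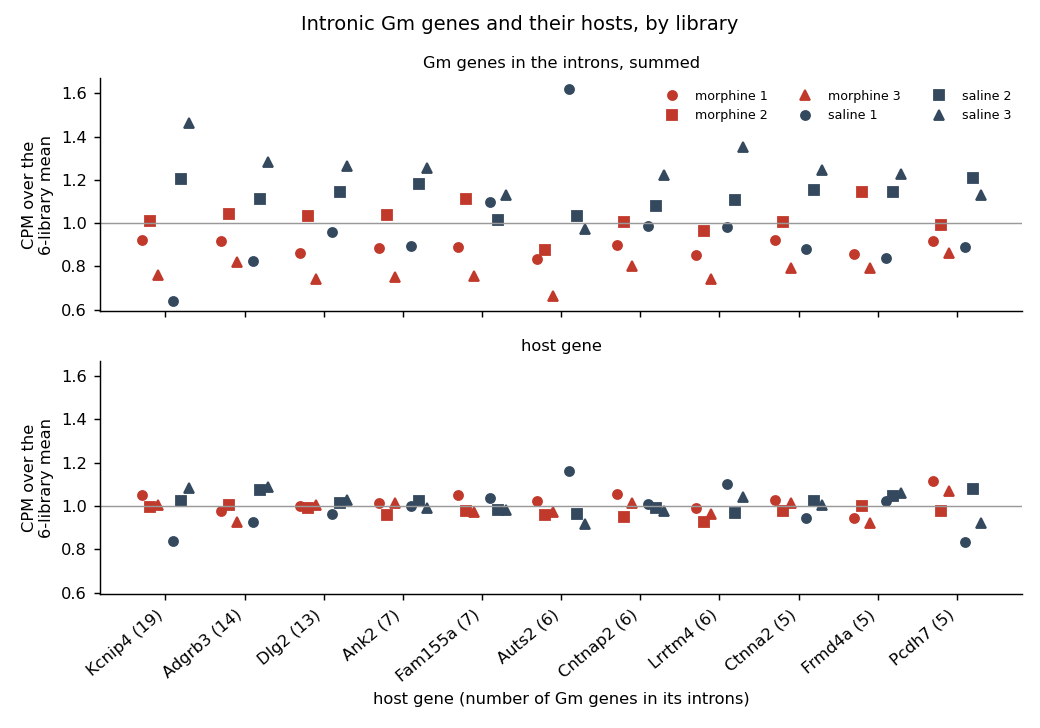
CPM relative to the mean of the 6 libraries for the summed intronic Gm genes of the 11 hosts with at least 5 of them (top) and for the host genes (bottom); red symbols are morphine libraries and dark symbols saline libraries. The intronic sums spread more widely than the hosts, and saline 1 is the lowest library for Kcnip4 and the highest for Auts2.

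The exceptions among intronic members were few. Of the 14 with a positive log2 fold change, Gm47512 and Gm37633 passed a p of 0.05. Gm47512 is annotated as antisense, lies on the strand of its host Nt5dc1 and had 719% of the host's counts. It had 30.1, 28.1 and 33.8 CPM in morphine and 21.8, 21.5 and 24.8 CPM in saline, with no overlap (0.44 ± 0.09, adjusted p = 0.467; Nt5dc1 0.15 ± 0.19). Gm37633, in the ubiquitin ligase gene Hecw2, had 8.68, 13.4 and 9.05 CPM in morphine and 6.34, 7.50 and 8.79 CPM in saline (0.46 ± 0.19, adjusted p = 0.619). Its groups overlapped, with morphine 1 below saline 3. Higher intronic members numbered 1 without morphine 2 or saline 2 and 3 without saline 3. The pair in Flrt2, an adhesion protein of axon guidance, had 0.29 ± 0.21 for Gm48014 and 0.22 ± 0.19 for Gm48015, and neither passed.

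Members opposite to a protein-coding gene went the other way. Of the 46, 16 (34.8%) were higher and 2 lower in morphine, with a median log2 fold change of 0.16. Set against the mean over the 6 libraries, their median level was 0.09, 0.02 and 0.14 (log2 CPM) in morphine 1 to 3 and -0.15, -0.04 and -0.03 in saline 1 to 3, so that the medians of the groups did not overlap. Saline 1 was the lowest. Without it 16 were still higher and 4 lower, and the median was 0.10. With each library left out in turn, between 11 (23.9%, without morphine 1) and 19 (41.3%, without morphine 2) were higher. Between 0 (without morphine 3) and 4 (without saline 1) were lower. Over all genes, 1.33% were higher without morphine 1 and 3.95% without morphine 2. Opposite-strand members took 0.0933%, 0.0916% and 0.0954% of all counts in morphine and 0.0793%, 0.0884% and 0.0872% in saline.

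Among the 43 tested hosts of these members, 2 were higher and 0 lower, with a median of 0.07. With each library left out, 0 to 7 hosts were higher (7 without morphine 2) and 0 to 2 lower (2 without saline 3). The member was above its host in 31 of 45 pairs, and r across the pairs was 0.44. Member counts were a median of 12.1% of the host's.

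**Figure D5:**
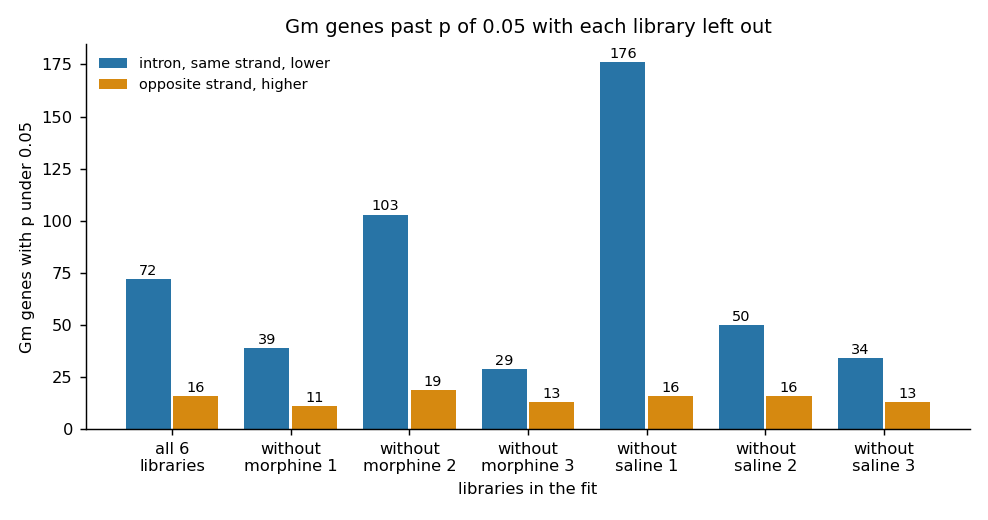
Number of intronic members lower (blue) and of opposite-strand members higher (orange) in morphine at an unadjusted p under 0.05, with all 6 libraries and with each library left out. Intronic members ranged from 29 without morphine 3 to 176 without saline 1, opposite-strand members from 11 to 19.

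Of the higher opposite-strand members, 9 stood among the 10 higher ones that had the lowest p and no overlap of groups. Likewise chosen for low p, each of these 9 kept a p under 0.05 with any 1 library left out, and 8 are described here. Gm38336 overlaps 685 bases of exon of Arhgef4, a guanine nucleotide exchange factor, and had 11.0, 11.0 and 10.3 CPM in morphine, against 7.38, 7.07 and 7.97 CPM in saline. Both groups were tight (log2 fold change 0.53 ± 0.11, adjusted p = 0.467), and Arhgef4 was at 0.13 ± 0.08. Gm20721 is annotated as protein-coding and has 1469 of its 1484 exonic bases over exons of Gnas, which encodes the stimulatory G protein alpha subunit. It had 129, 114 and 140 CPM in morphine, against 100.1, 104 and 106 CPM in saline (0.31 ± 0.07, adjusted p = 0.506). Gnas was at 0.11 ± 0.06, with 738, 657 and 728 CPM in morphine and 658, 649.7 and 654 CPM in saline, so that morphine 2 was the lowest morphine library for both genes.

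Gm49227, opposite to the amyloid precursor gene App, had 27.0, 20.03 and 26.2 CPM in morphine and 16.9, 18.6 and 16.5 CPM in saline (0.49 ± 0.12, adjusted p = 0.564; App 0.12 ± 0.06). Morphine 2 was again the lowest of its group, close to saline 2.

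Gm44123, with 574 of 577 bases over exons of Iqsec1, an exchange factor of Arf GTPases at synapses, had 12.6, 11.1 and 13.4 CPM in morphine and 7.03, 9.48 and 8.89 CPM in saline (0.55 ± 0.14, adjusted p = 0.573). Gm28294, opposite to Ptprn, a protein of dense-core vesicles, had 11.3, 11.5 and 12.4 CPM in morphine and 6.38, 8.67 and 9.09 CPM in saline (0.55 ± 0.14, adjusted p = 0.573). In both saline 1 was the lowest library, and without it the values were 0.43 and 0.41. Gm14703, opposite to synaptophysin (Syp), a major protein of synaptic vesicles, had 27.3, 24.1 and 24.2 CPM in morphine and 19.8, 20.9 and 19.3 CPM in saline (0.33 ± 0.09, adjusted p = 0.573).

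Gm13872, opposite to the glial glutamate transporter Slc1a2, had 28.0, 24.9 and 29.3 CPM in morphine and 20.5, 23.1 and 21.5 CPM in saline (0.34 ± 0.09, adjusted p = 0.573). Gm26782, opposite to Tep1, a telomerase-associated protein, had 38.4, 37.96 and 41.0 CPM in morphine and 29.2, 35.4 and 32.1 CPM in saline (0.28 ± 0.08, adjusted p = 0.588). It had 308% of the counts of Tep1, which was at -0.02 ± 0.12. Gm11175, whose 877 bases lie whole over the exon of the AP-1 subunit gene Jund, had 32.1, 26.2 and 32.8 CPM in morphine and 25.4, 27.0 and 24.9 CPM in saline. Its groups overlapped (0.24 ± 0.10, adjusted p = 0.619), and it did not pass 0.05 without morphine 1, morphine 3 or saline 3, at 0.20, 0.18 and 0.22.

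The 2 lower members of this position were chosen for naming after their values were seen. Neither passed an unadjusted p of 0.05 without morphine 3. Gm44559, inside an intron of the ubiquitin ligase gene Ube3a, had 7.08, 11.0 and 8.79 CPM in morphine and 10.4, 12.6 and 13.7 CPM in saline (-0.45 ± 0.17, adjusted p = 0.616), and Ube3a was at 0.00 ± 0.05. Gm10125, opposite to the zinc finger gene Zeb1, had 8.57, 8.66 and 7.01 CPM in morphine and 11.3, 9.52 and 11.1 CPM in saline (-0.40 ± 0.13, adjusted p = 0.605).

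Members with no exonic base in another protein-coding gene had a median nearer to 0. Of the 91, 0 were higher and 14 (15.4%) lower in edgeR, with a median of -0.06. The 3 morphine libraries were below the 3 saline libraries for 8, where 7.32% of all genes had no overlap in that direction. Without saline 1, 29 were lower, while 5 were lower without morphine 3 and 7 without morphine 1 or saline 3. Without saline 3, 3 were higher. Of the 91, 20 overlapped a gene of another name, and 3 of these were lower, with a median of -0.12. The overlapped gene was non-coding except for Gm7072, whose span overlaps the protein-coding gene CT030661.1 on the same strand. The 12 within 5000 bp downstream of the nearest gene, on its strand, had 1 lower (-0.03), and the other 59 had 10 (-0.06). The most counted outside the rRNA locus were near level. Gm42372 had 136, 129 and 133 CPM in morphine and 142, 127 and 138 CPM in saline (-0.03 ± 0.06), and Gm19410 had -0.03 ± 0.11. Gm37899 lies 7153 bp downstream of Rian, a lncRNA expressed from the maternal chromosome, and had 54.9, 79.7 and 56.1 CPM in morphine and 62.0, 80.5 and 82.2 CPM in saline (-0.24 ± 0.15, adjusted p = 0.693). Gm3764 had 71.7, 87.2 and 73.5 CPM in morphine and 76.9, 99.3 and 91.8 CPM in saline (-0.21 ± 0.10, adjusted p = 0.653). In both, 2 of 3 morphine libraries were below every saline library, and without saline 1 they were at -0.36 (adjusted p = 0.0943) and -0.30 (adjusted p = 0.038).

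The 16 members that share exon sequence with a gene on the same strand had 1 higher and 4 lower, with a median of -0.15. Without saline 1, 0 were higher and 8 lower, and without morphine 3, 0 were higher and 2 lower. The higher one was also lost without morphine 1 or morphine 2, and 2 were higher without saline 3. No source used here states how the counting treated reads from the shared bases. Gm38393 shares 589 bases with Snrpn, an imprinted splicing-factor gene, and had 143, 149 and 137 CPM in morphine and 151, 159 and 162 CPM in saline (-0.14 ± 0.05, adjusted p = 0.616). It did not pass 0.05 without morphine 1 (-0.14), morphine 3 (-0.11), saline 2 (-0.13) or saline 3 (-0.11). Snrpn was at 0.07 ± 0.06. Gm49336 was level at 84.5, 82.1 and 83.0 CPM in morphine and 83.1, 81.9 and 84.1 CPM in saline (0.00 ± 0.05, 95% interval -0.11 to 0.11).

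By class, the antisense genes had 13 of 25 higher and 0 lower (median 0.28), and TEC genes 1 of 247 higher and 80 lower (median -0.27). Lower TEC genes numbered 181 without saline 1 (-0.39), 42 without morphine 1, 32 without morphine 3 and 36 without saline 3, and higher ones 0 to 3. Sense intronic genes had 0 of 21 higher and 2 lower, with a median of -0.24; 15 of the 21 were lower without saline 1, 8 without morphine 2, and 1 without morphine 3 or saline 2. Protein-coding members had 3 of 30 on each side (median 0.02). The split was 2 higher and 7 lower without saline 1, 5 and 1 without saline 3, 2 and 1 without morphine 1 and 2 and 0 without morphine 3. LincRNAs had 2 of 37 higher and 5 lower (median -0.05), with 11 lower without saline 1, 10 without morphine 2 and 3 without morphine 3, and 1 higher without morphine 1. Their median was above 0 without saline 2 (0.02) or saline 3 (0.01). Processed transcripts had 0 of 13 higher and 2 lower (-0.06), with 1 lower without morphine 1 or saline 1, 0 lower without morphine 3 and 1 higher without morphine 2 or saline 2. Gm10855, the sense intronic member of highest count, lies in Celf2, an RNA-binding splicing factor, and had 32.5, 34.4 and 25.5 CPM in morphine and 27.3, 45.9 and 50.1 CPM in saline. It was at -0.42 ± 0.20 (adjusted p = 0.645) with saline 1 and at -0.64 without it.

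A few members were decided by 1 library. Gm14204 lies 44 bp upstream of Slc32a1, the vesicular GABA transporter of inhibitory neurons, on the opposite strand. It had 5.20, 6.57 and 7.18 CPM in morphine and 19.7, 7.21 and 6.49 CPM in saline, and its value of -0.82 ± 0.37 (adjusted p = 0.638) became -0.11 without saline 1. It did not pass 0.05 either without morphine 1 (-0.70), morphine 2 (-0.85) or morphine 3 (-0.93). Gm48261, in Adarb2, an RNA-editing family gene of interneurons, had 6.36, 7.78 and 6.49 CPM in morphine and 18.5, 7.59 and 8.89 CPM in saline (-0.77 ± 0.29, adjusted p = 0.616; -0.26 without saline 1, -0.72 without morphine 1 and -0.73 without morphine 3, none of which passed 0.05). Adarb2 showed the same library, at 34.0, 37.7 and 34.7 CPM in morphine and 70.3, 41.0 and 40.7 CPM in saline. The 6 interneuron markers summed to 572, 542 and 577 CPM in morphine and to 944, 550.4 and 515 CPM in saline; their part in these values was not tested.

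Other members could not be assigned with certainty. Gm10557, Gm14305, Gm14325, Gm14326, Gm15446 and Gm21811 match another gene at 95% identity or more over at least 50% of their longest transcript, so that their counts depend on how the authors' counting treated shared reads. None of the 6 passed the test. The pseudogene Gm21811 was at -0.12 ± 0.15 and Gm10557 at 0.02 ± 0.12. The 3 members not placed were level as well, with Gm45884 at 235, 225 and 237 CPM in morphine and 232, 229 and 227 CPM in saline (0.02 ± 0.05).

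Genes outside the 383 were also compared. Of the 10591 Gm genes below the threshold 3187 were tested, and 2.79% were higher and 8.19% lower, with a median of -0.11. With each library left out, 3.94% (without morphine 3) to 14.4% (without saline 1) of them were lower. Genes of any name outside the 383 that lie within an intron on the same strand (1720 tested) had 0.349% higher and 15.8% lower, with a median of -0.27, and 7.17% (without morphine 3) to 26.6% (without saline 1) were lower with each library left out. Those on the opposite strand of a protein-coding gene had 4.66% higher and 2.54% lower, with a median of 0.02, and 2.28% (without morphine 1) to 5.68% (without morphine 2) were higher with each library left out. Those with no exonic base in another protein-coding gene (12045 tested) had 2.44% higher and 3.64% lower, with a median of -0.002. With each library left out, 1.78% (without morphine 3) to 4.9% (without saline 2) of them were lower. The difference between the members and these genes was not tested.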

How the data were processed

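RNA was sequenced from rRNA-depleted, directional libraries of 3 morphine and 3 saline samples. The authors deposited 1 table with a whole-number read count, not normalized, and an FPKM value for each gene and library. Per the submitters' notes on processing, the tools were HISAT2 2.1.0 and cutadapt 1.9.3, StringTie 1.3.3 and HTSeq 0.11.2, and limma 3.40.6, DESeq 1.8.3 and DESeq2 1.26.0, on mm10, with no role stated for any. Groups were taken from the sample labels.

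The deposited counts of 18970 genes, those that reached 10 counts in 3 or more of the 6 libraries, were scaled by TMM factors and compared by the two-sided quasi-likelihood F test of edgeR 4.0.16 (R 4.3.3). The study's own test, which uses no spread between replicates, was not run. P-values were adjusted over all genes tested (Benjamini-Hochberg). The standard error is the log2 fold change divided by the root of F, and intervals are 95%. The test was checked on simulated data.

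Identifiers were matched to GENCODE (31748 matched, 15 not). Position was taken from the exonic bases of each gene against other protein-coding genes. Near-identical copies were sought with BLAST 2.17.0. Alternatives were DESeq2 1.42.0, RLE factors, TMM over protein-coding genes, other count filters, a summed count of 2000, limma 3.58.1 on log2(FPKM + 0.1) and log2(FPKM + 1) with and without a filter at 0.1, a replicate block and each library left out. No same-numbered pair had a correlation of deviations over 0.1, so that the numbers were not taken as pairs. No replicates were as close as sampling noise (chi-square 2.91 to 14.7 times its degrees of freedom).

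Named members are the 12 of highest count, the 10 lowest-p ones on each side whose groups do not overlap, the 2 of highest count per class, those next to the threshold, those set by 1 library, and those at the rRNA locus. Members of hosts, and others named as examples, were chosen after their values were seen. One named member and the sequence of another are not reported here. The members, groups and lists were chosen with earlier results of these data known. Of the Gm genes that the study names, 0 are members.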

Additional observations from a re-analysis of the deposited data

How the results depend on the processing

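The direction of the median log2 fold change of the members, of the intronic and of the opposite-strand members held under every alternative run, except that for the intronic and opposite-strand members a summed count of 2000 was not run. With each library left out, lower members numbered 36 to 217, higher ones 13 to 21, lower ones past a fold of 1.5 4 to 35, higher ones past it 0 to 5, those at an adjusted p under 0.05 0 to 78, lower intronic ones 29 to 176, and the median of the opposite-strand members ranged from 0.10 to 0.21. DESeq2 gave 5 members at an adjusted p under 0.05. With no filter on low counts there were 43, with 150 lower members and 123 lower intronic ones; the cause was not tested. On log2(FPKM + 0.1), 58 members and 47 intronic ones were lower, without a filter 52 and 42, and on log2(FPKM + 1) 2 were lower past a fold of 1.5; the cause was not tested. At a summed count of at least 2000, which leaves 144 members, 8 were higher, 31 lower and 3 lower past a fold of 1.5.

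With the replicate number as a block, 18 members were higher, 100 lower, 10 of them past a fold of 1.5, and 0 passed an adjusted p of 0.05, with a median of -0.19. The correlations of same-numbered samples were 0.0153, 0.00133 and -0.0211, and the samples share only a number. Of the 27 members named by the listed rules with an unadjusted p under 0.05, between 21 and 27 kept it under each alternative. None of these changed sign. Members named as examples are not among the 27. With 3 samples a group, the 33 members of under 1100 summed counts had standard errors of 0.12 to 0.25 on the log2 scale (median 0.17), and differences within their intervals were not detectable.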
